A study of Macaca mulatta with 3 samples.

Results

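The broad domains of trimethylated lysine 4 of histone H3 (H3K4me3) described here were 1045 of the 24248 peaks in the deposited list. They were chosen as the listed peaks at least 2600 bases wide on chromosomes 1 to 9, 11 to 15, 17 and 18 whose input density did not exceed 10 times its genome mean. The members were thus chosen by width and input density, and before that by the ChIP excess on which the list was made, so values of these kinds are given as descriptions, with no test. Of 1501 listed peaks of that width, 375 lay on other chromosomes and 81 of the remaining 1126 exceeded the input limit. The domains made up 5.86% (5.52 to 6.22) of the 17819 peaks with ordinary input on the same chromosomes, where the 16774 narrower ones, and among them the 3870 of 1600 to 2400 bases, served for comparison. Shares and ratios are followed by exact Clopper-Pearson bounds (95%), which cover counting error only, and medians by bounds from order statistics over peaks.

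The study mapped H3K4me3 to find transcription start sites in the rhesus macaque. Frozen prefrontal cortex (superior frontal gyrus) came from 1 male aged 3389 days. Its sonicated chromatin was precipitated with an Abcam antibody against H3K4me3, and fragmented DNA of that tissue without precipitation served as input. RNA pooled from 5 males was sequenced too and was not analysed here. Whole cortex holds neurons, glia and vessel cells, so each value is a mixture over cell types, and fewer marked cells cannot be told apart from less mark per cell. With 1 library of each kind from 1 animal there is no replicate check, and the tests below compare tags within these libraries.

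H3K4me3 is laid down mainly by the SET1 and MLL families of methyltransferase complexes, on nucleosomes around the starts of active and poised genes, often at CpG islands. At most promoters the mark covers a few nucleosomes on either side of a start site that is itself poor in nucleosomes. At some genes it runs on into the transcribed body, and such broad domains are known from many tissues to favour genes that define the identity of the cell. No gene was assigned to any domain here, because the gene table at hand describes another assembly than the files, so whether these domains follow that pattern was not tested, nor could the labelled tissue be checked against marker genes.

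The ChIP library held 10023993 tags and the input 9162762, or 3.50 and 3.20 tags per kb of genome, and 1 tag of each library was counted at its 5′ end. Ratio here means ChIP tags per input tag of a region, corrected for the library totals, which themselves stood at 1.09 to 1. The libraries were not filtered alike. ChIP tags carried the codes U0, U1 or U2 and could share a position, whereas input tags were all coded U0 and none shared a position and strand. A ChIP tag spanned 36 bases in the files and an input tag 38. What the codes mean is not stated.

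A typical domain spanned 3000 bases (interquartile range 2600 to 3600, widest 13800), and together the domains covered 3400.2 kb. The lowest held 33 ChIP tags, the median 81 and the highest 622, against 5, 18 and 418 input tags. A domain had a median of 25.9 ChIP tags per kb (25.4 to 26.4), against 25 (24.5 to 25.5) at 1600 to 2400 bases and 23.6 (23.3 to 23.8) in all narrower peaks. Density thus differed far less than width did.

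At the median the ratio was 4.11 (3.99 to 4.28). Its quartiles were 2.84 and 5.54, and its extremes 1.34 and 16.1. It was 4.23 (4.11 to 4.31) at 1600 to 2400 bases and 3.86 (3.81 to 3.88) over all narrower peaks. On recount, 924 domains (88.4%) were enriched, that is, had a ratio of at least 2 and an adjusted p below 0.05 by a two-sided exact binomial test with Benjamini-Hochberg adjustment over 24248 peaks, beside 77.4% of the whole list. A ratio of at least 4 was reached by 548 domains (52.4%), beside 43.9% of the list. The list was called on this ChIP library and wider peaks hold more tags, so these shares say how the domains were listed and nothing more. All 121 domains that were not enriched had a ratio under 2, and 8 of them missed the adjusted p as well.

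Around the width threshold nothing broke off. The 376 peaks of 2400 bases, just outside, had medians of 61 ChIP tags, 25.4 tags per kb and a ratio of 4.13. The 269 domains of 2600 bases, just inside, had 67 tags, 25.8 tags per kb and a ratio of 4.37. At the input limit, the nearest domain inside had 9.96 times the genome mean and the nearest peak outside 10.2 times. The 81 wide peaks beyond that limit had a median ratio of 1.37 and a median width of 5800 bases.

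Within the domains, ChIP density changed little with width. Its median lay between 25.3 and 28.4 tags per kb in each of 7 width classes, from 2600 bases to 5200 bases and more. The median ratio was 3.76 to 4.54 in the first 6 classes and 2.47 (1.63 to 3.63) in the 37 domains of 5200 to 13800 bases. In that widest class the median input was 2.81 times the genome mean, against 1.77 to 1.89 in the others. With the 25 of its members whose input was no more than 5 times the mean, a limit chosen after the data were seen, the ratio was 3.63 (2.56 to 5.05).

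**Figure D1:**
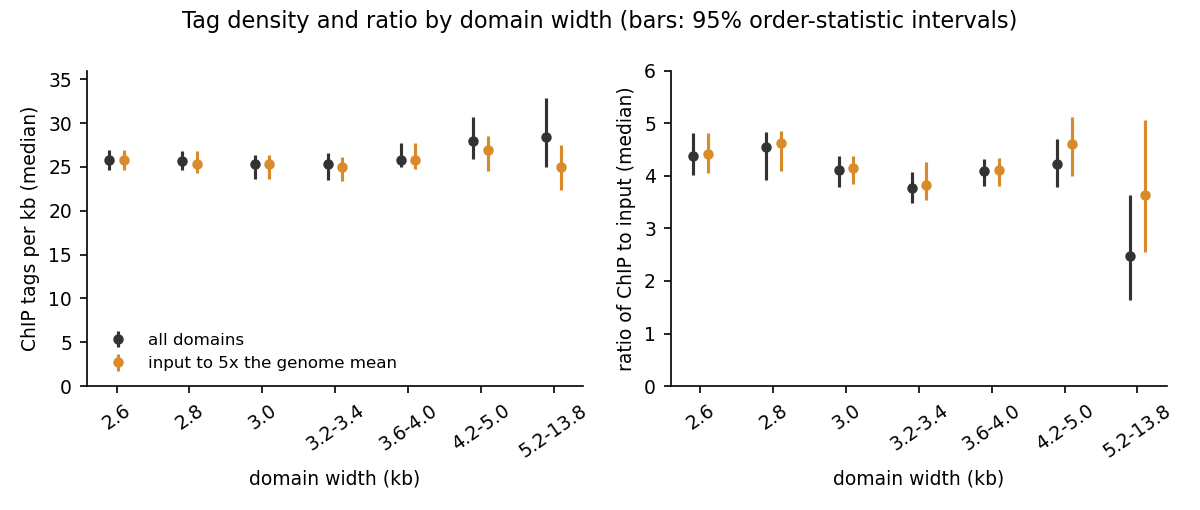
Median ChIP tags per kb (left) and median ratio of ChIP to input (right) in 7 classes of domain width in kb, for all 1045 domains and for the 1002 with input up to 5 times the genome mean; bars are 95% order-statistic intervals over domains. Density stays between 25.3 and 28.4 tags per kb for all domains, and the ratio of the widest class is 2.47 with all its members and 3.63 with the lower input limit.

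The input divided the domains unevenly. In 43 of them it lay between 5 and 10 times the genome mean, and their median ratio was 1.62 (1.55 to 1.75), against 4.24 (4.08 to 4.40) in the other 1002. Only 4 of the 43 were enriched, and a ratio of 4 was reached by 0 of them, which allows a share of up to 8.22%. Codes U1 and U2 made up 46.3% of the ChIP tags in the 43 and 20.3% in the 1002, and repeated positions 7.41% and 0.432%. Of the 43, 25 (58.1%) lay within 50 kb of a peak above the input limit, against 14 of the 1002 (1.397%). Chromosome 6 held 8 of them, chromosome 14 held 7, chromosome 3 held 5 and chromosome 9 held 4. These domains passed the rule but were near the excluded wide peaks in ratio, and what part the codes and repeated positions have in that was not tested. Values under the lower input limit, from the 1002, are set beside several of the results below.

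Summed over the domains, ChIP density formed a low arch from edge to edge while the input stayed level. Each domain was cut into 20 equal steps. ChIP density rose from 21.5 tags per kb in the first step to 31.6 just past the centre and fell to 20 in the last. The 4 middle steps held 30.8 tags per kb and the 4 outer ones 22.2, a ratio of 1.39 (1.36 to 1.42). Input density was 7.16 and 7.01 tags per kb in the same places, a ratio of 1.02 (0.981 to 1.06), and 6.49 to 7.97 over all 20 steps. ChIP over input was 3.93 (3.81 to 4.06) in the middle and 2.89 (2.80 to 2.99) at the edges. Under the lower input limit it was 4.56 (4.40 to 4.72) and 3.15 (3.04 to 3.27). In the middle of peaks of 1600 to 2400 bases it was 4.61 (4.502 to 4.72), but the lower limit was not applied to those peaks. They share the input limit of all domains, whose middle stood lower, at 3.93, a difference that was not tested. In both sets of domains even the outermost steps stood far above the flanks, from which the list had parted them on these same ChIP tags.

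Middle and edge stood in a like ratio in narrower peaks, where each step covers fewer bases. At 1600 to 2400 bases ChIP density was 17.9 tags per kb in step 1, 25.1 in step 2 and 25.1 in step 4. In the domains it was 21.5, 23.9 and 26.2 in those steps. A step of the same number reaches farther from the edge in the domains, so these values do not compare shapes at equal distance. The ChIP ratio of middle to edge was 1.35 (1.33 to 1.37) at 1600 to 2400 bases and 1.39 (1.37 to 1.4) in all narrower peaks. With the lower input limit it was 1.404 (1.37 to 1.43) in the domains, beside 0.972 (0.929 to 1.02) for the input. In the 43 input-rich domains the ratio of middle to edge was 1.27 (1.16 to 1.398) in the input and 1.23 (1.15 to 1.33) in the ChIP. Neither library rose evenly toward the middle there. ChIP density was 33.4 tags per kb in step 9, 57.2 in step 12, 41.4 in step 19 and 24.4 in step 20. Input density was 22.5, 31.6, 26.4 and 15.6 tags per kb in those steps.

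Outside the edges ChIP density fell off within a single 200-base step. It was 6.95 tags per kb in the first 200 bases, 4.73 from 200 to 400 bases, 6.49 from 400 to 600 and 5.48 from 1800 to 2000 bases, leaving out stretches inside other peaks. Input density was 4.33, 3.93 and 4.48 tags per kb in the first, second and last of these steps. It was lower there than just inside the edges, at 7.05 in the first step of the domains and 6.49 in their last. The ratio was 1.46 (1.38 to 1.55) beside the edge, 1.10 (1.03 to 1.17) in the next step and 1.12 (1.05 to 1.19) in the last. The listed edges fall on a 200-base grid, and no listed peaks were closer than 400 bases, so the step from 200 to 400 bases lies outside every listed peak by construction of the list. The list was called on these same ChIP tags, so a fall at its edges is likewise part of how it was made.

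**Figure D2:**
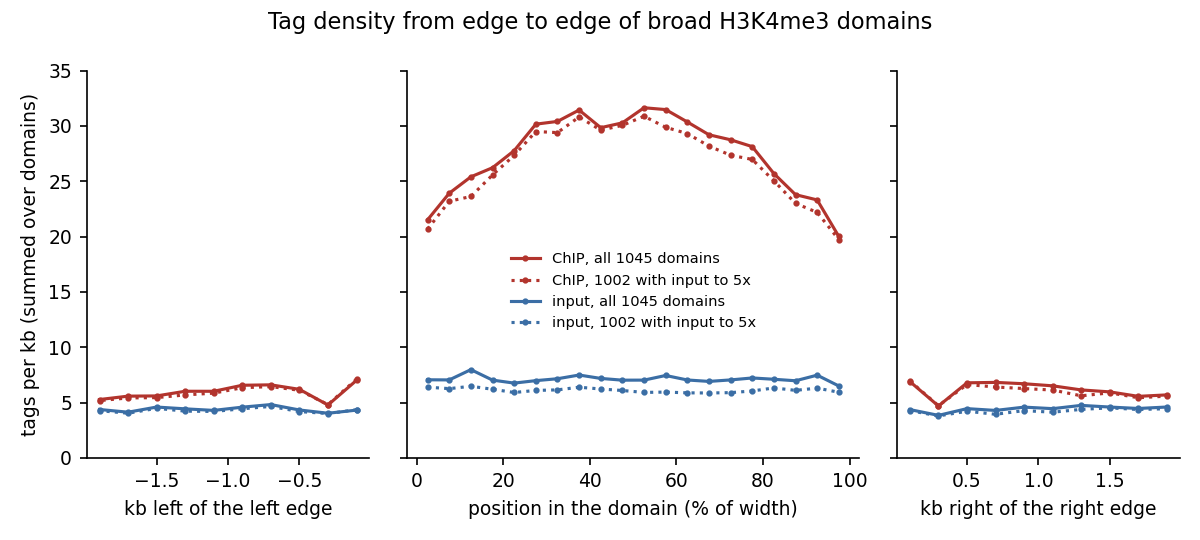
Tags per kb summed over domains in 10 steps of 200 bases to the left (kb from the left edge), 20 equal steps across (percent of width) and 10 such steps to the right (kb from the right edge), for ChIP and input, in all 1045 domains and in the 1002 with input up to 5 times the genome mean. ChIP rises from 21.5 at the left edge to 31.6 and falls to 20, while input stays between 6.49 and 7.97 over all domains.

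Few windows within the domains were without a ChIP tag. Of their 17001 windows of 200 bases, 379 (2.23%) held no ChIP tag and 31.9% no input tag. A ChIP tag was found in every window of 733 domains (70.1%). The list was called on these same tags on a 200-base grid, so a scarcity of empty windows is in part built into it. No such share is given for narrower peaks. The median window of a domain held 4.5 tags and the fullest held 12 at the median over domains (range 4 to 130), a factor of 2.6 between them. With so few tags per window, gaps and bumps in a single domain were near the limit of this depth.

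Single domains show the range of shapes. On chromosome 4 at 32675001 to 32682000, a domain of 7.0 kb held 315 ChIP and 26 input tags, a ratio of 11.1 (7.42 to 17.2), and it was the only one to rank among both the 10 widest and the 10 steepest of the 280 domains that held 100 or more ChIP tags. Its 35 windows of 200 bases held 1 to 28 ChIP tags and 0 to 3 input tags, with 2 raised parts on either side of windows with 1 and 2 tags near the centre. A peak lay 400 bases from its right edge. On chromosome 17 at 2285001 to 2292400, a domain of 7.4 kb had a low and even signal with 3 small summits by the rule given below. It held 158 ChIP and 23 input tags, a ratio of 6.28 (4.04 to 10.2), with 1 to 9 ChIP tags in each window.

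The highest ratio was found on chromosome 5 at 95807201 to 95810200, where 123 ChIP tags stood against 7 input tags, a ratio of 16.1 (7.57 to 40.8) over 3.0 kb. Next came a domain of 2.8 kb on chromosome 14 at 8929001 to 8931800 with 121 and 9 tags and a ratio of 12.3 (6.26 to 27.5). The 10 highest among those 280 domains ranged down to 9.78 (5.12 to 20.98) on chromosome 5 at 165424001 to 165427000. Their intervals overlapped throughout, so their order was not resolved. The others lay on chromosome 3 at 149595601 to 149598800, chromosome 4 (named above), chromosome 6 at 129450401 to 129453000, chromosome 9 at 86962401 to 86966200, chromosome 13 at 69889801 to 69893000 and at 55341201 to 55345200, and chromosome 18 at 10725801 to 10729400, with ratios of 10.1 to 11.7. Input in these 10 was 0.729 to 1.16 times the genome mean. The ratio that ranked them has the input as its denominator, so low input is in part built into this choice.

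Of the 10 widest domains, 5 were rich in input. The widest of all, 13.8 kb on chromosome 14 at 67056201 to 67070000, held 622 ChIP and 418 input tags, a ratio of 1.36 (1.20 to 1.54), and 46.8% of its ChIP tags were coded U1 or U2. Its fullest windows were full in both libraries, with 51 ChIP and 23 input tags in the highest and 42 and 41 in the next. Similar ratios were found on chromosome 7 at 61781201 to 61790600 (1.497), chromosome 14 at 66803201 to 66811200 (1.63), chromosome 5 at 77943601 to 77950600 (1.58) and chromosome 13 at 136522601 to 136529600 (1.34), all with input at 6.38 to 9.18 times the mean. Chromosome 15 at 98588001 to 98595600 stood between, with a ratio of 2.12 (1.599 to 2.85) at 2.92 times the mean. The remaining 4 of the 10 widest were the 7.0-kb and 7.4-kb domains above, chromosome 7 at 148803601 to 148810600, whose ratio was 4.55 (3.16 to 6.70), and chromosome 5 at 25609401 to 25616200, whose ratio was 6.0 (4.27 to 8.63). Within the 10 widest, only these 4 had a ratio above 4.

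Of the 5 domains with most ChIP tags per kb, 4 were rich in input as well. The most ChIP tags per kb, 61.7, were found on chromosome 6 at 42929001 to 42933200, where 259 ChIP tags stood against 94 input tags, a ratio of 2.52 (1.98 to 3.22). The exception, with input at 1.88 times the mean, spanned 4.0 kb on chromosome 3 at 142412601 to 142416600 and held 230 ChIP and 24 input tags, or 57.5 ChIP tags per kb and a ratio of 8.76 (5.74 to 13.95). Its windows held 2 to 28 ChIP tags and no more than 4 input tags. The other 3, on chromosome 8 at 82195401 to 82199600, chromosome 14 at 66763601 to 66768600 and chromosome 5 at 77922201 to 77926000, had ratios of 1.80 to 2.02.

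**Figure D3:**
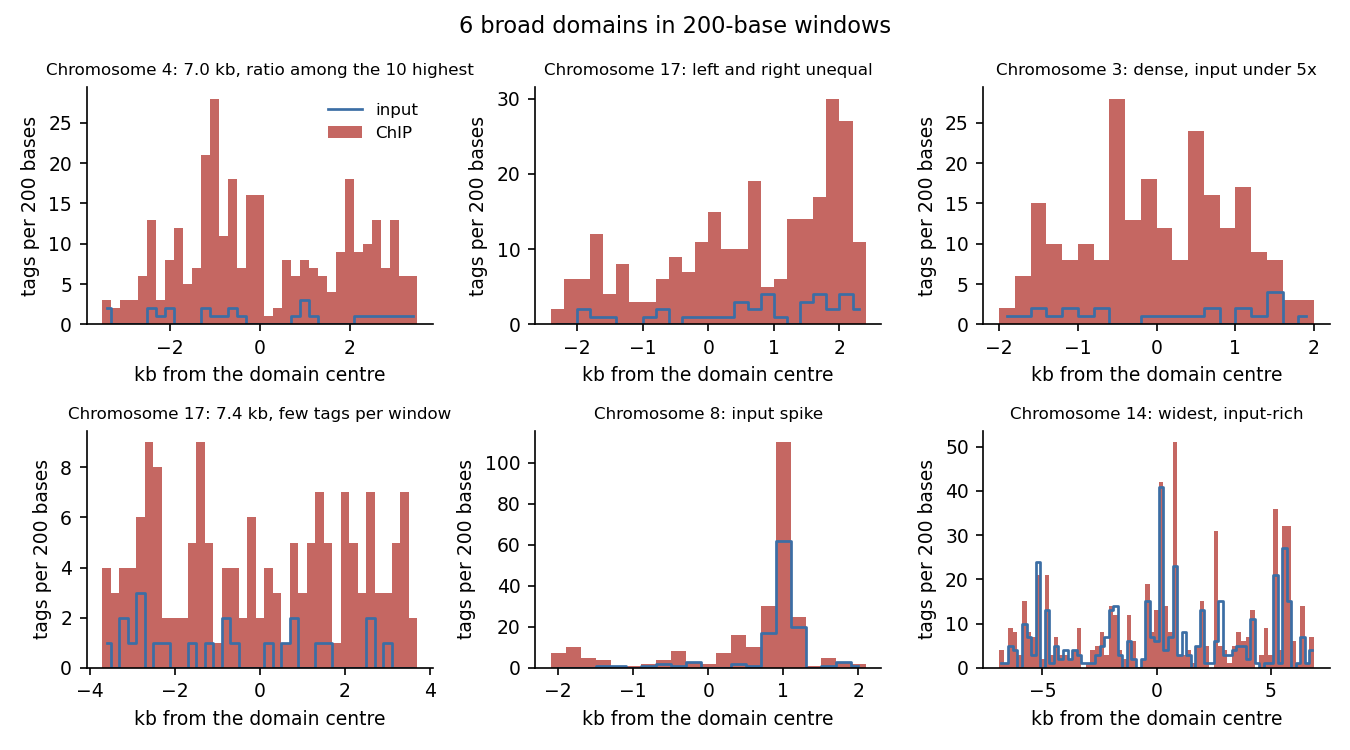
Tags in 200-base windows (y) against distance in kb from the centre (x) for 6 domains, ChIP as filled bars and input as a line, each panel with its own scale. In the domains on chromosomes 4, 3 and 17 input reaches 4 tags at most, whereas on chromosomes 8 and 14 the input follows the ChIP windows, with 62 input tags beside 110 ChIP tags in 1 window on chromosome 8.

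Summits were counted after moving each ChIP tag 75 bases downstream and smoothing with a Gaussian of SD 150 bases. A summit had to be at least 1/3 as high as the highest of its domain. It also had to be parted from each higher one by a valley at 50% or less of its own height. By that rule 516 domains (49.4%) had 1 summit, 425 had 2, 93 had 3, 8 had 4, 1 had 5 and 2 had 6, so 529 (50.6%, 47.5 to 53.7) had at least 2. The share with at least 2 was 34.2% at 2600 bases, 64.8% at 3600 to 4000 and 94.6% at 5200 bases and more, where there is also more room for summits. The 2 highest summits lay a median of 1422 bases apart (range 635 to 4936). This count depended strongly on the settings: it was 88.1% with a Gaussian of SD 100 bases, 7.37% with 250 bases and 83.0% with a valley of 70%. The number of summits in a domain was not resolved at this depth.

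Under the lower input limit, the most summits were found on chromosome 12 at 8046601 to 8052400. This domain of 5.8 kb had 5 summits, 165 ChIP tags and 16 input tags, a ratio of 9.43 (5.63 to 16.9). Its windows nonetheless held only 1 to 14 ChIP tags each. The other 4 of the 5 named for most summits, with ties broken by ChIP tags, lay on chromosomes 7 and 14 and had ratios of 1.36 to 1.51 and input at 6.98 to 9.96 times the mean. They included the widest of all, with 6. The tie left out 6 further domains with 4 summits, whose ratios were 1.42 to 5.41 at 0.883 to 5.71 times the mean input.

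The highest summit could lie anywhere from near an edge to the centre. It lay a median of 32.2% of the width from the nearer edge (30.3 to 33.1), within 25% of an edge in 359 domains (34.4%) and between 40 and 60% of the width in 296 (28.3%). It was left of the centre in 537 of 1045. When the ChIP tags were divided into 2 sets by alternate lines of the file, the highest summits of both sets lay within 200 bases of each other in 41.8% of domains, with a median distance of 341 bases. Between strands the share was 41.1% and the median distance 343 bases. Separate tags thus placed the highest summit alike in a minority of domains.

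Summits placed by 1 set of tags could be measured in the other, which did not place them. In that other set, the 300 bases around the highest summit held 25.1 ChIP tags per kb and the bases 350 to 650 away held 12.3, a ratio of 2.03 (1.97 to 2.10). Input density was raised in the same place, at 10.2 against 6.18 tags per kb, a ratio of 1.65 (1.57 to 1.73). With the lower input limit the rise was 1.96 (1.89 to 2.02) in ChIP and 1.45 (1.37 to 1.53) in input. At 1600 to 2400 bases, where the lower limit was not applied, it was 1.98 and 1.503. The input library thus rose where the ChIP library had its summits, in wide and narrower peaks alike, although it stayed level over the domain as a whole. ChIP over input, scaled to the whole ChIP library, was 4.51 (4.33 to 4.70) at the summit and 3.65 (3.51 to 3.796) away from it.

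**Figure D4:**
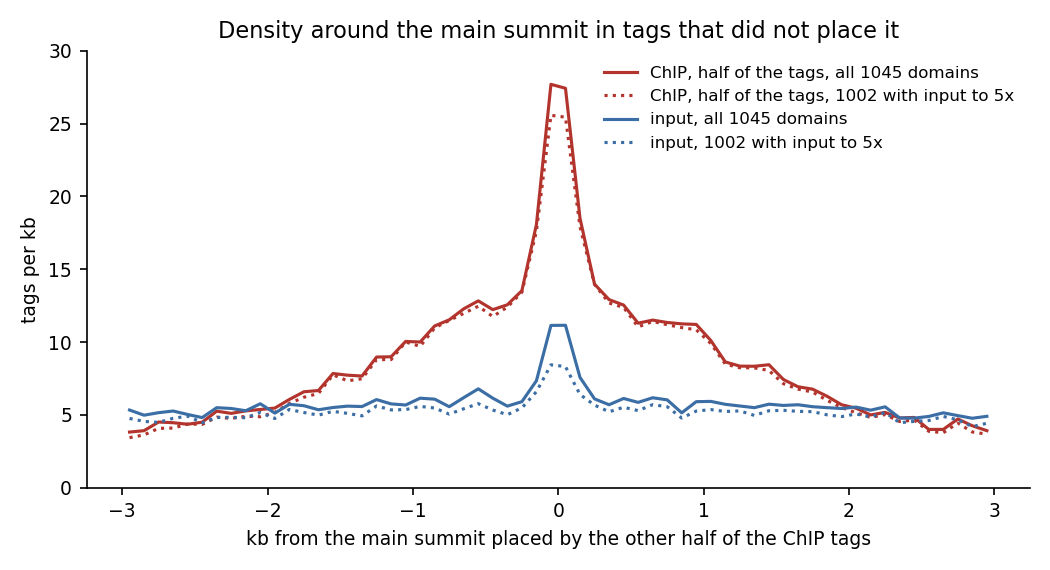
Tags per kb (y) against distance in kb from the highest summit placed by 1 set of ChIP tags (x), for the ChIP tags of the other set and for all input tags, in all 1045 domains and in the 1002 with input up to 5 times the genome mean. Both libraries peak at 0, ChIP at 25.1 over the central 300 bases against 12.3 at 350 to 650 bases, and input at 10.2 against 6.18.

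Valleys between summits behaved in the same way. In 706 domains the first set of tags gave 2 summits at least 400 bases apart. In the second set the higher summit held 26.4 tags per kb, the valley 9.14 and the lower summit 16.98, so the valley stood at 0.538 (0.502 to 0.576) of the lower summit. The input held 11.3, 4.64 and 9.70 tags per kb there, and its valley stood at 0.478 (0.435 to 0.526) of the lower summit. ChIP over input was 4.28 at the higher summit, 3.601 (3.27 to 3.96) in the valley and 3.20 (2.995 to 3.42) at the lower summit. Relative to input the valley was therefore not lower than the lower summit. In the 673 such domains under the lower input limit these ratios were 5.39, 3.81 and 3.67. Whether the shape of the ChIP profile within domains follows the mark or how readily each stretch yields tags was not tested.

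Some domains held more ChIP tags on one side of their centre. A two-sided exact binomial test of the tags left and right of the centre, with Benjamini-Hochberg adjustment over 24248 peaks, called 125 domains (11.96%) unequal in ChIP, beside 3.57% of the list. It called 5 (0.478%) unequal in input, beside 0.33% of the list, and all 5 were among the 43 input-rich domains. At an unadjusted p below 0.05 the counts were 341 and 74. With distinct ChIP tags of code U0 alone, 77 domains were unequal in ChIP. Shares of the whole list are not given at these settings, so those counts do not set the domains apart from other peaks. In the 125, the fuller side was the left in 70 and the right in 55, and it held a median of 70% of the ChIP tags. Summed over the 125, the fuller side held 69.2% of ChIP tags (68.5 to 69.97) and 58.3% of input tags (56.8 to 59.8). The same side was fuller in input in 80, the other in 38, and 7 were equal. The domains and their fuller side were picked on these same ChIP tags, which raises the ChIP share, and the input held fewer tags to test, so these shares and counts do not compare the libraries.

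The list holds many peaks with few tags, and such a test calls more where there are more. Among peaks with at least 60 and under 120 ChIP tags, 79 of 701 domains (11.3%, 9.02 to 13.8) were unequal, against 139 of 1009 peaks of 1600 to 2400 bases (13.8%, 11.7 to 16.1). These intervals overlapped, although within that range the domains still held more tags, with a median of 82 against 70. Counted on separate tags, the side that was fuller in the first set held 56.6% (56.2 to 57.1) of the second set and 52.5% (51.8 to 53.1) of the input. It was fuller in both sets in 688 of 1007 domains (68.3%).

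Of the 5 most unequal domains, 3 were rich in input. On chromosome 8 at 82195401 to 82199600 the left side held 46 ChIP tags and the right 210, with an adjusted p of 3.75e-23, but the input held 9 and 107. A single window of 200 bases there held 110 ChIP and 62 input tags. On chromosome 14 at 66763601 to 66768600 the sides held 228 and 69 ChIP tags and 111 and 39 input tags. Those of chromosome 7 at 168965001 to 168968000 held 22 and 100 ChIP tags beside 15 and 58 input tags. In these 3 the input leaned the same way about as far or farther.

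The other 2 had input at 1.74 and 2.34 times the mean over the whole domain. On chromosome 4 at 13455801 to 13459400, the left side held 99 ChIP tags and the right side 28 (adjusted p 6.72e-08), beside 15 and 5 input tags. On chromosome 17 at 36649201 to 36654000 the sides held 77 and 178 ChIP tags (adjusted p 8.55e-08), beside 9 and 27 input tags. Here too the few input tags leaned the same way. Among the 10 widest, chromosome 5 at 25609401 to 25616200 held 79 ChIP tags left of its centre and 177 right of it (adjusted p 2.83e-07), beside 15 and 24 input tags. The input-rich widest domain, on chromosome 14, was also unequal, with 237 and 385 ChIP tags (adjusted p 9.44e-07) beside 173 and 245 input tags. So was input-rich chromosome 5 at 77943601 to 77950600, with 103 and 175 ChIP tags (adjusted p 0.00165) beside 61 and 100 input tags. All adjusted p in these sentences come from the exact binomial test above and cover counting error of 1 library.

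In the list as deposited, domains had shorter median gaps to other peaks than both comparison sets, while a small group lay far from any. The median gap to the nearest peak, edge to edge, was 14.4 kb (12 to 17), against 22.8 kb (21.4 to 24.8) at 1600 to 2400 bases and 20 kb (19.2 to 20.8) in all narrower peaks. Among peaks with a deposited value below 1e-10 the gaps were 55 kb (46 to 62), 63 kb (60 to 65.6) and 60 kb (57.8 to 62.6), which overlapped in interval, so the shorter gap was not resolved there. A peak lay within 5 kb of 34.8% of domains (31.9 to 37.8), against 26.9% (25.5 to 28.4) and 29.96% (29.3 to 30.7). The intervals of these shares within 5 kb did not overlap, although peaks are not independent and the difference was not tested. It was also present among peaks with at least 60 and under 120 ChIP tags, at 31.2% (27.8 to 34.8) of domains and 21.8% (19.3 to 24.5) of peaks of 1600 to 2400 bases. A peak within 5 kb on both sides was found for 6.89% of domains (5.43 to 8.60), against 4.73% (4.08 to 5.45) and 4.05% (3.75 to 4.36).

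Most close neighbours were not broad themselves. In the 364 domains with a peak within 5 kb, that nearest peak had medians of 1200 bases, 23.5 ChIP tags and a ratio of 3.17 (2.94 to 3.43). Of these nearest peaks, 12.1% were themselves at least 2600 bases wide. Among all 17976 peaks on these chromosomes 1126 were that wide, and the domains made up 5.86% of those with ordinary input. The share was thus larger among close neighbours, a difference that was not tested. Under 1 kb, 184 peaks adjoined a domain, and 105 of them stood at 400 bases, the smallest gap in the list. Merging such neighbours therefore changes which regions count as broad. With peaks under 1 kb apart merged, 1655 regions reached 2600 bases, 25.02% (22.9 to 27.2) had a neighbour within 5 kb and the median gap was 18.8 kb (17 to 20.4). Narrower merged peaks then stood at 17.1% (16.5 to 17.7) and 28.8 kb (28 to 29.8). The order was the same, but merging makes regions broad because they had close neighbours. It therefore cannot tell whether the order in the deposited list holds.

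At larger distance the domains lay in peak-rich surroundings. Within 500 kb of either edge there was a median of 15 other peaks (13 to 16), against 12 at 1600 to 2400 bases and 12 in all narrower peaks. Another broad domain lay within 50 kb of 219 (20.96%, 18.5 to 23.6), while one lay that near to 13.0% (11.98 to 14.1) of peaks of 1600 to 2400 bases and 11.6% (11.1 to 12.1) of all narrower ones. With the lower input limit the share of domains was 19.5% (17.1 to 22.1). A broad neighbour at that distance was thus found for a larger share of broad domains than of the comparison sets, a difference that was not tested. The share within 2 Mb of a chromosome end, 6.99% (5.52 to 8.70), lay between the 5.56% and 7.17% of both comparison sets.

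A larger share than in the comparison sets was also isolated, again with no test of the difference. No other peak lay within 500 kb of 28 domains (2.68%, 1.79 to 3.85), against 1.14% (0.827 to 1.52) of peaks of 1600 to 2400 bases and 1.19% (1.03 to 1.37) of all narrower peaks. The most isolated domain, on chromosome 5 at 68197201 to 68200000, had its nearest neighbour 3985.8 kb away. It spanned 2.8 kb and held 113 ChIP and 16 input tags, a ratio of 6.46 (3.81 to 11.7), with 3 to 21 ChIP tags in each 200-base window. Next came the 7.0-kb domain on chromosome 7 at 148803601 to 148810600, 1747.2 kb from its nearest neighbour. The other 3 of the 5 most isolated, on chromosome 17 at 64389001 to 64393800, chromosome 2 at 119380601 to 119383200 and chromosome 4 at 73562601 to 73565600, stood 1148.6 to 1186.2 kb from any peak and had ratios of 3.78 to 4.95. Input in these 5 was 1.56 to 2.04 times the mean, so none was rich in input.

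**Figure D5:**
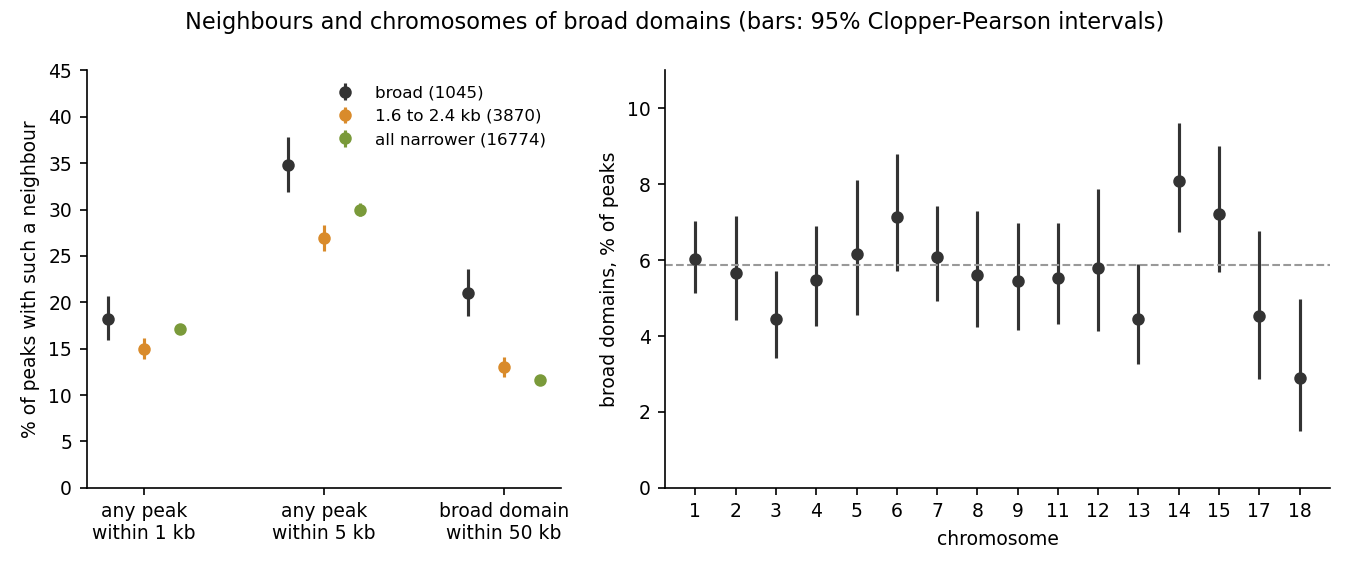
Left, percent of broad domains, peaks of 1.6 to 2.4 kb and all narrower peaks with a listed peak within 1 kb or 5 kb, or with a broad domain within 50 kb; right, broad domains as a percent of peaks with ordinary input on each of 16 chromosomes, the dashed line marking 5.86% over all. Bars are 95% Clopper-Pearson intervals; 34.8% of domains against 26.9% and 29.96% of the comparison sets have a neighbour within 5 kb, and chromosome 14 is highest and chromosome 18 lowest.

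Chains were formed of domains parted by 50 kb or less. They comprised 63 pairs, 20 chains of 3, 4 of 4, 2 of 5 and 1 of 7, while 826 domains stood alone. The chain of 7 spanned 99.8 kb of chromosome 6 at 46453401 to 46553200 and had ratios of only 1.41 to 1.93 with input at 5.29 to 9.47 times the mean. A chain of 4 on chromosome 5 at 77922201 to 77950600 was of the same kind, with ratios of 1.58 to 1.80. In contrast, the chains of 5 lay on chromosome 14 at 8805001 to 8931800 and on chromosome 11 at 53137201 to 53249600. Their input was 1.00 to 2.34 and 1.32 to 1.89 times the mean, with ratios of 2.13 to 12.3 and of 3.26 to 6.32. The chain of 4 on chromosome 15 at 1036601 to 1125000 had ratios of 2.87 to 6.32. The chain with most members was thus made of input-rich domains, although those of 5 spanned more, at 126.8 and 112.4 kb. Domains of a chain share their neighbourhood and are not separate cases.

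Across chromosomes the share of peaks that were broad ran from 2.88% (1.499 to 4.98) on chromosome 18 to 8.10% (6.75 to 9.62) on chromosome 14. Chromosome 15 followed with 7.21% and chromosome 6 with 7.15%, while chromosomes 13, 3 and 17 had 4.44%, 4.46% and 4.53%. The intervals of chromosomes 3 and 18 lay below 5.86% and that of chromosome 14 above it, while all others held it. Per Mb there were 0.163 broad domains on chromosome 18 and 0.887 on chromosome 14. The median ratio by chromosome was 3.58 on chromosome 15 to 6.23 on chromosome 17, the latter from 22 domains.

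Strand spacing was measured in the domains and in narrower peaks. The lag, searched from 60 to 300 bases, with most pairs of plus- and minus-strand ChIP tags was 112 bases in the domains, with an SD of 44.7 bases between chromosomes. In the 580 domains of at least 3000 bases it was 60 bases, the limit of the search. It was 117 bases with the lower input limit, at 1600 to 2400 bases and in all narrower peaks. Below the range searched, pairs 36 bases apart, the length of a tag, stood at 2.23 times the mean of lags from 200 to 300 bases in all domains and at 1.18 times under the lower input limit. The excess at tag length thus lay mainly in the 43 input-rich domains.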

How the data were processed

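For each of the 2 chromatin libraries the authors deposited every aligned tag as a line, and for the ChIP library a list of peaks. The list gives each peak a deposited p-value or q-value (no source states which), the highest in the domains being 0.00098. Per the labels' protocols, single-end tags of 36 bases were read, although input tags span 38 bases in the file. The submitters' processing notes name TopHat and SICER, with neither version nor role. Aligner and build: not given in the sources used here. Positions follow the files and count from 1.

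Tags were counted by 5′ end, so totals of 10023993 (ChIP) and 9162762 (input) set the precision. Where input was 0 in a peak, 3 tags were assumed. Tests ran over the whole list. Profiles, summits, balance, gaps and strand lags were computed with Python 3.11.15, numpy 2.4.6, scipy 1.17.1 and pandas 2.3.3, and drawn with matplotlib 3.10.9. Only the recount, the left-right test and the summit count were tried on simulated data, and profiles, gaps and strand lags were not. Bounds of medians treat peaks as independent, and PCR tags are not independent molecules. The genome mean divides all tags by the summed last tag ends of the autosomes and X.

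The domains, lists and settings were chosen with earlier results of these data known. Domains named by position are the 10 widest, the 10 highest by ratio (from 100 ChIP tags), the 5 with most ChIP tags per kb, the 5 with most summits, the 5 most unequal from left to right, the 5 with the largest gap and the 5 chains of most domains. Chains were ranked by number of domains and not by span, and not all of the tied chains of 4 are named. Alternatives were a width of 3000 bases, a lower input limit, merged peaks, a stricter deposited value, 1 tag per position, U0 tags only, moved tags, other smoothing, valleys and weights, and a ratio of 4. The pooled RNA library was not analysed here.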

Additional observations from a re-analysis of the deposited data

How the results depend on the processing

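Of 39 alternatives to 11 results, 20 left the value within its interval or, for counts, within a factor of 1.5, and 19 moved it. The 9 that applied the limit of 5 times the mean input beyond the number of domains were chosen after the data were seen, and none of them moved a value. That limit keeps 1002 of the 1045 domains, so these 9 could hardly move a value and are a weak check. A width of at least 3000 bases left 580 domains, 3.25% of peaks, with a median ratio of 3.98, 40.9% with a neighbour within 5 kb and a strand offset of 60 bases, the limit of the search. Merging peaks under 1 kb apart gave 1655 domains, 10.1% of peaks, with 25.02% near a neighbour and a median gap of 18.8 kb. That gap was 55.0 kb among peaks with a deposited value below 1e-10, where fewer peaks remain by construction. A ratio of at least 4 left 548 enriched domains. The ratio of middle to edge was 1.33 with tags moved 75 bases and 1.35 with each domain given equal weight. The share with 2 or more summits was the least stable value, at 88.1% and 7.37% with a Gaussian of SD 100 and 250 bases, 83.0% with a valley of 70%, 46.8% with tags not moved and 62.0% with distinct U0 tags. Those tags called 77 domains unequal from left to right, a count given without the share of the whole list. Unless stated, the cause was not tested. No paired analysis was possible because there is 1 library of each kind. Depth limits the count of summits and the order of single domains, and nothing here measures variation between animals, libraries or cell types.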

Other observations

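On the chromosomes outside the rule, 369 further peaks of at least 2600 bases had ordinary input. Their median ratio was 3.595 (3.44 to 3.85), below the 4.11 (3.99 to 4.28) of the domains described above, and it ranged from 1.28 to 14.6. The difference was not tested.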
